A study of Sus scrofa with 13 samples.

Results

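FLT1, RGS5, ENPEP and NPR3 are 4 genes of blood vessels and of the clearance of vasoactive peptides, taken by their gene symbols from the 10283 genes with a name on a pig expression array. Each was measured by 1 probe set, a group of oligonucleotides whose brightness is summarised into 1 value per array. The muscle was biceps femoris of German Landrace pigs, 1 array per animal. DMD knockout (DMD KO) animals at 2 days (n = 4) were set against wild-type (WT) animals at 2 days (n = 3), and DMD KO animals at 3 months (n = 3) against WT animals at 3 months (n = 3). The knockout animals carried a deletion of exon 52 of DMD, the gene for dystrophin. It was built in a bacterial artificial chromosome and brought into the animals by nuclear transfer from modified primary kidney cells. DMD KO muscle was collected right after the animals had died and WT muscle after euthanasia, so genotype cannot be told apart from manner of death or, where WT animals were not clones, from cloning.

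FLT1 (VEGF receptor 1) binds VEGFA and placental growth factor on the endothelium. A soluble form traps the ligand away from KDR (VEGF receptor 2), the main signalling receptor. RGS5 is a regulator of G-protein signalling that shortens the response to vasoconstrictors, and it is widely used as a pericyte marker. NPR3 removes natriuretic peptides from the circulation by internalising them and lacks the guanylyl cyclase domain of NPR1 and NPR2. ENPEP (aminopeptidase A) is a surface enzyme that cuts the first residue from angiotensin II. In skeletal muscle, capillaries run along every fibre, and dystrophic muscle is known for a disturbed blood supply.

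Levels are on a scale read as log2 from its range, since the labels name no base. SD stands for the standard deviation among the animals of 1 group. A difference was called at a Benjamini-Hochberg adjusted p under 0.05 by limma over all 21893 probe sets, and SE is limma's moderated standard error. Array medians lay between 7.32 and 7.38 and the 25th percentiles between 6.53 and 6.61. WT replicate 3 at 2 days stood apart, with the lowest mean correlation to the other arrays (0.918, against 0.943 to 0.964). Its 95th percentile was also the lowest (9.21, against 9.48 to 9.83), so the arrays differed at the bright end although their medians were close. The DMD probe set gave no called genotype difference (0.11 and -0.22 at the younger and older age, adjusted p = 0.705 and 0.528). It checks no label, since the position of its probes relative to exon 52 was not known here. Of 16 listed markers of muscle fibres 9 were measured, and their mean level lay between 11.3 and 12.2 on every array, far above the array medians.

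At 2 days FLT1 and NPR3 were higher in DMD KO and RGS5 and ENPEP were not called. At 3 months FLT1 and RGS5 were lower in DMD KO, and NPR3 and ENPEP were not called. That is 2 of 4 genes called at each age, where the share over all probe sets was 9.93% at 2 days (7.09% higher and 2.85% lower) and 5.98% at 3 months (4.62% higher and 1.36% lower). For age, 1 gene was higher and 1 lower at 3 months in WT, where 2.89% of all probe sets were called (1.71% higher and 1.18% lower). In DMD KO 2 were lower, where 8.04% were called (4.47% higher and 3.57% lower). Groups did not overlap for 2 of the 4 genes at 2 days and for 3 of 4 at 3 months, against 24.6% and 23% of all probe sets. Between ages they did not overlap for 2 of 4 in WT and 2 of 4 in DMD KO, against 13.3% and 20.8%. The genotype difference itself changed between the ages in FLT1 and RGS5, in the downward direction for both, where 5.05% of all probe sets were called (3.06% upward and 1.99% downward).

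**Figure D1:**
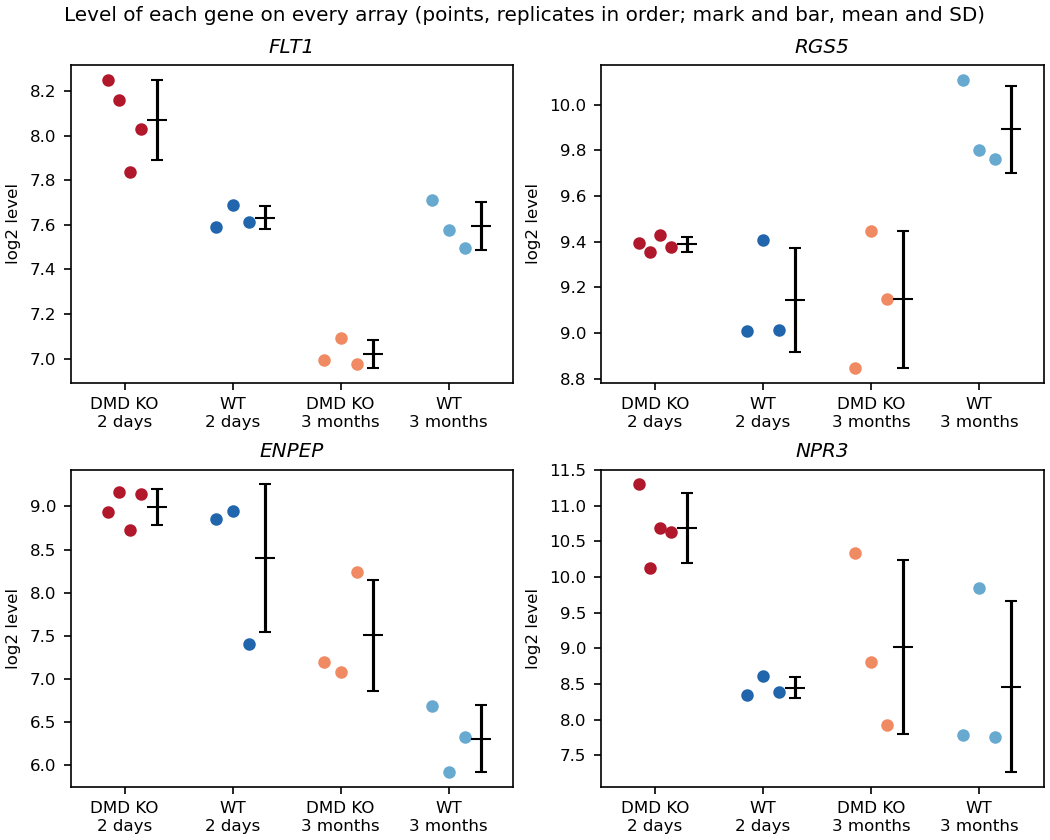
Log2 level of FLT1, RGS5, ENPEP and NPR3 on each of the 13 arrays, by group; points are animals, and the mark and bar give the mean and SD. FLT1 of DMD KO lies above WT at 2 days and below it at 3 months, with means of 8.07, 7.63, 7.02 and 7.59 in the order of the groups shown.

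FLT1 changed sides between the ages. In DMD KO replicates 1 to 4 at 2 days its log2 levels were 8.25, 8.16, 7.84 and 8.03, and in WT replicates 1 to 3 they were 7.59, 7.69 and 7.61. Every DMD KO animal lay above every WT animal. The mean was 8.07 ± 0.18 (SD, n = 4) against 7.63 ± 0.05 (SD, n = 3), a 1.36-fold higher level (log2 difference 0.44 ± 0.10, SE, adjusted p = 0.0191). The call stood close to the threshold: adjusted p was 0.0538, 0.0538 and 0.0543 without DMD KO replicate 2, WT replicate 1 or WT replicate 3 at 2 days, with differences of 0.41, 0.42 and 0.43. On the 2 groups alone the same difference had an adjusted p of 0.0629.

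At 3 months FLT1 stood at 6.99, 7.09 and 6.97 in DMD KO replicates 1 to 3 and at 7.71, 7.58 and 7.50 in WT replicates 1 to 3. Here every DMD KO animal lay below every WT animal. The level was 1.49-fold lower in DMD KO (-0.57 ± 0.11, SE, adjusted p = 0.00777), and the call held whichever 1 array was left out. In WT the mean moved from 7.63 to 7.59, a difference of -0.04 with a 95% interval from -0.27 to 0.20 (adjusted p = 0.956). In DMD KO it fell by 1.05 ± 0.10 (SE, adjusted p = 5.56e-05), a 2.07-fold lower level at 3 months. The change of the genotype difference between ages was -1.01 ± 0.15 (SE, adjusted p = 0.0019), and it was called under every alternative tried. In the order of the group means, DMD KO at 2 days came first and DMD KO at 3 months last, and the WT groups between them overlapped each other. On their arrays the FLT1 values ranked between percentiles 35.8 and 80.1 of all probe sets.

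RGS5, which sat near the bright end of every array (percentiles 89.3 to 96.5), rose with age in WT and was not called for age in DMD KO. At 2 days the levels were 9.39, 9.35, 9.43 and 9.38 in DMD KO replicates 1 to 4 and 9.01, 9.41 and 9.02 in WT replicates 1 to 3. The groups overlapped, with WT replicate 2 among the DMD KO values and the other WT animals below. By rank on its own array, WT replicate 3 stood at percentile 93.6, above the 92.8 to 93.3 of the DMD KO animals. The difference of 0.24 ± 0.14 (SE, adjusted p = 0.286) was not called, and it was 0.01 after quantile normalization of the arrays.

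At 3 months RGS5 stood at 8.85, 9.45 and 9.15 in DMD KO replicates 1 to 3 and at 10.11, 9.80 and 9.76 in WT. All DMD KO animals lay below all WT animals, and DMD KO replicate 2 came closest to them. The level was 1.67-fold lower in DMD KO (-0.74 ± 0.15, SE, adjusted p = 0.013). The call was lost in a fit on the groups at 3 months alone (adjusted p = 0.0619) and held without any 1 array. WT animals rose by 0.75 ± 0.15 from 2 days to 3 months (SE, adjusted p = 0.0233). Adjusted p for that rise was 0.0736, 0.0526 and 0.0814 without WT replicates 1 or 3 at 2 days or WT replicate 1 at 3 months, and 0.166 on the WT groups alone. In DMD KO the age difference was -0.24 (95% interval -0.56 to 0.07, adjusted p = 0.466). The genotype difference changed between the ages by -0.99 ± 0.21 (SE, adjusted p = 0.0179). WT at 3 months was thus the group with the highest mean, clear of the other 3, whose neighbours in the order overlapped.

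NPR3 had the largest genotype difference of the 4 genes, at 2 days. Its levels were 11.3, 10.1, 10.7 and 10.6 in DMD KO replicates 1 to 4 and 8.35, 8.61 and 8.38 in WT replicates 1 to 3. The lowest DMD KO value was above the highest WT value by more than the spread of either group. The level was 4.72-fold higher in DMD KO (2.24 ± 0.56, SE, 95% interval 1.03 to 3.45, adjusted p = 0.0266). That standard error is shared by all 4 groups, and the groups at 3 months spread more widely than those at 2 days. The call was lost without DMD KO replicates 1, 3 or 4 or WT replicates 1 or 3 at 2 days (adjusted p = 0.0622, 0.0605, 0.0621, 0.0628 and 0.0759), while the difference stayed between 2.03 and 2.43 without any 1 of the 13 arrays.

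At 3 months NPR3 differed more between animals of a group than between groups. DMD KO replicates 1 to 3 stood at 10.3, 8.81 and 7.93 and WT replicates 1 to 3 at 7.78, 9.85 and 7.75. DMD KO replicate 1 and WT replicate 2 were the high animals, and the groups overlapped. The difference of 0.56 (95% interval -0.73 to 1.86, adjusted p = 0.624) was not called and was -0.09 without DMD KO replicate 1. In DMD KO the level at 3 months was lower than at 2 days by a difference of -1.66 ± 0.56 that did not pass (SE, adjusted p = 0.102). It passed without DMD KO replicate 1 at 3 months (-2.32, adjusted p = 0.0217), and when WT replicate 2 of that age was left out (-1.66, adjusted p = 0.04). In WT the age difference was 0.01 (95% interval -1.28 to 1.31). The change of the genotype difference between ages, -1.68 ± 0.82, was not called (SE, adjusted p = 0.354).

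ENPEP fell with age in both genotypes. Its levels at 2 days were 8.93, 9.17, 8.73 and 9.14 in DMD KO replicates 1 to 4 and 8.85, 8.94 and 7.41 in WT replicates 1 to 3. WT replicate 3, the array that stood apart, was the low value, and the other WT animals lay within the DMD KO range. The difference of 0.59 ± 0.36 was not called (SE, adjusted p = 0.301) and was 0.10 without that array.

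At 3 months ENPEP stood at 7.19, 7.08 and 8.24 in DMD KO and at 6.69, 5.92 and 6.33 in WT. The groups did not overlap, and DMD KO replicate 3 was the high animal of its group. WT replicates 2 and 3 lay below the 25th percentile of their arrays, so no fold is given against WT at 3 months. The genotype difference of 1.20 ± 0.39 did not pass (SE, 95% interval 0.35 to 2.04, adjusted p = 0.103). It passed without WT replicate 3 at 2 days (adjusted p = 0.0174), an array outside the comparison that enters only through the shared spread, and with array weights (0.95, adjusted p = 0.0186).

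From 2 days to 3 months ENPEP fell by 2.09 ± 0.39 in WT (SE, adjusted p = 0.0124). It fell by 1.49 ± 0.36 in DMD KO (SE, adjusted p = 0.0231). Neither age comparison had overlapping groups. In a fit on the WT groups alone adjusted p for the WT fall was 0.151. The call in DMD KO was lost without DMD KO replicates 1, 2 or 4 at 2 days (adjusted p = 0.0516, 0.0637 and 0.0618) and without replicates 1 or 2 at 3 months (0.102 and 0.114). The falls in WT and DMD KO were not shown to differ (0.60 ± 0.53, SE, adjusted p = 0.704).

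**Figure D2:**
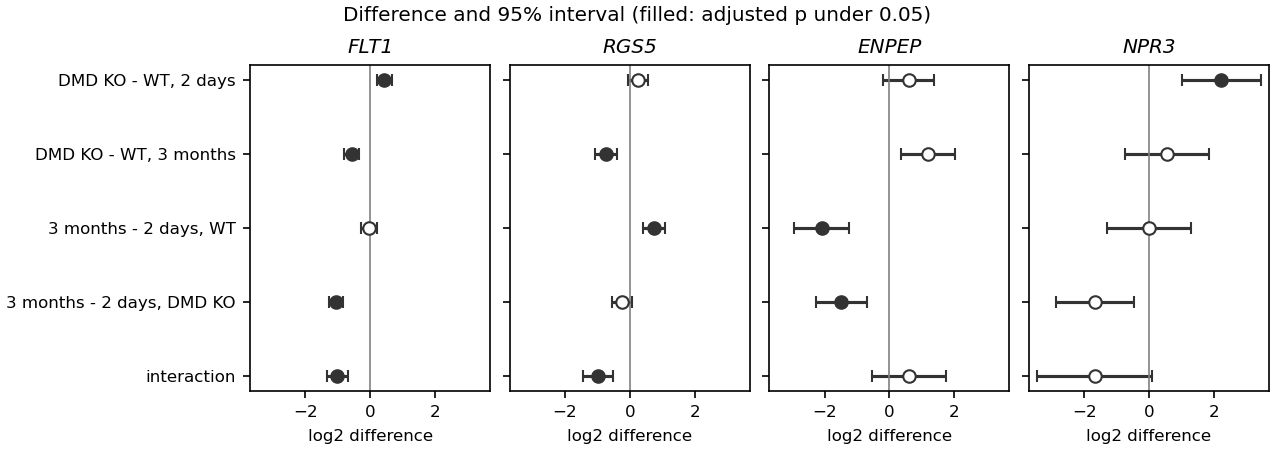
Log2 difference and 95% interval of each gene in the 4 comparisons between groups and in the interaction (the DMD KO and WT difference at 3 months less the one at 2 days); filled points have an adjusted p under 0.05. FLT1 is at 0.44 at 2 days and -0.57 at 3 months, and NPR3 at 2 days has the largest genotype difference, 2.24.

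The other genes of the VEGF pathway were then read from a list of 11 ligands and receptors, of which 6 were measured. For this and the lists below, the shares called between genotypes over all probe sets were 7.09% higher and 2.85% lower at 2 days. At 3 months the shares were 4.62% higher and 1.36% lower. FLT1 was the one called member between genotypes at either age, and the median of the list was 0.25 at 2 days and -0.52 at 3 months, beside -0.02 and -0.05 over all probe sets. KDR, the partner receptor, stood at differences of 0.22 and -0.65 at 2 days and 3 months (adjusted p = 0.501 and 0.12). VEGFA, the ligand of both, differed by 0.38 (adjusted p = 0.29) and -0.54 (adjusted p = 0.252) at these ages. Neither passed, and neither changed its genotype difference between ages by a called amount (-0.88, adjusted p = 0.141, and -0.93, adjusted p = 0.162). From 2 days to 3 months in DMD KO, 3 of the 6 genes fell: KDR by 1.13 (adjusted p = 0.00428), FLT1, and VEGFA by 0.89 (adjusted p = 0.0302). Over all probe sets 3.57% were called lower with age in DMD KO. In WT 0 of the 6 were called for age by limma, and 0 had an unadjusted p under 0.05. Over the 13 arrays KDR followed FLT1 with r = 0.867, and with r = 0.464 once group means were taken away.

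Among 16 measured genes of angiopoietin, Notch and endothelin signalling, 2 were higher in DMD KO at 2 days, beside 7.09% of all probe sets. TEK, the angiopoietin receptor, was higher by 0.65 (adjusted p = 0.0461) and EDNRB, the endothelin B receptor, by 0.74 (adjusted p = 0.0153). Without WT replicate 3 at 2 days EDNRB alone was called. The list as a whole leaned the other way. Its median was -0.19 at 2 days and -0.12 at 3 months, with 9 and 3 of the 16 at an unadjusted p under 0.05 by limma. At 2 days its mean level ranged from 7.332 to 7.415 in DMD KO and from 7.426 to 7.550 in WT. ANGPT2 was among the genes with a negative difference at 2 days (-0.70, adjusted p = 0.118, not called). At 3 months ANGPT2, the ligand that destabilises vessels, was the one called gene, 2.35-fold lower in DMD KO (-1.23, adjusted p = 0.0253). The 3 DMD KO animals had ANGPT2 levels of 7.06, 7.22 and 6.60 and the WT animals 8.74, 8.47 and 7.35, so WT replicate 3 was close to the highest DMD KO animal. The genotype difference of EDNRB changed between ages by -1.26 (adjusted p = 0.00948), downward as in FLT1.

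In the natriuretic peptide list NPR3 was the one called gene of 14 at 2 days, and 0 of 14 were called at 3 months by limma, with 3 at an unadjusted p under 0.05. The cyclase receptors NPR1 and NPR2 differed by -0.29 (adjusted p = 0.141) and -0.16 (adjusted p = 0.266) at 2 days. The peptides NPPA and NPPB differed by -0.11 (adjusted p = 0.404) and -0.18 (adjusted p = 0.341). The list's median was -0.07 at both ages. Without WT replicate 3 at 2 days NPR3 was not called, and at 3 months MME (neprilysin, a peptidase that degrades natriuretic peptides) and GUCY1B3 (a subunit of soluble guanylyl cyclase) were, by 0.60 and 0.56 (adjusted p = 0.0305 and 0.0338).

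Of 17 measured genes of the renin-angiotensin system and its peptidases, 1 was higher in DMD KO at 2 days and 3 at 3 months, and the rest were not called. Over all probe sets 7.09% were called higher at 2 days and 4.62% at 3 months, so 1 of 17 at 2 days is near the share. ATP6AP2, the prorenin receptor and a subunit associated with the proton pump, was higher at both ages, by 0.68 (adjusted p = 0.0199) and 0.86 (adjusted p = 0.00919). CTSA, a lysosomal carboxypeptidase, was higher at 3 months by 0.81 (adjusted p = 0.0276), and DPP4, a surface dipeptidyl peptidase, by 0.58 (adjusted p = 0.0475). ANPEP (aminopeptidase N), a relative of ENPEP, differed by 0.35 and 0.54 (adjusted p = 0.194 and 0.118). When WT replicate 3 at 2 days was left out, the counts were 0 at 2 days and 6 at 3 months, the 6 being ATP6AP2, ENPEP, LNPEP, DPP4, MME and CTSA. The shares above are from all 13 arrays and do not apply to these counts. Leaving out 1 array moved the number of called probe sets as well. It ran from 1143 to 3210 at 2 days and from 702 to 2036 at 3 months, against 2175 and 1310 with all arrays.

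AGTR1, the receptor of angiotensin II, fell with age in DMD KO beside ENPEP, by 2.09 (adjusted p = 0.00048), from a mean of 9.02 to 6.94. In WT its age difference of -1.18 narrowly missed the threshold (adjusted p = 0.0538). MME had the highest correlation with ENPEP on this list over the 13 arrays (r = 0.907, and 0.737 within groups), with WT replicate 3 at 2 days low in both. Its age differences of -0.90 and -0.47 in WT and DMD KO did not pass (adjusted p = 0.101 and 0.36).

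**Figure D3:**
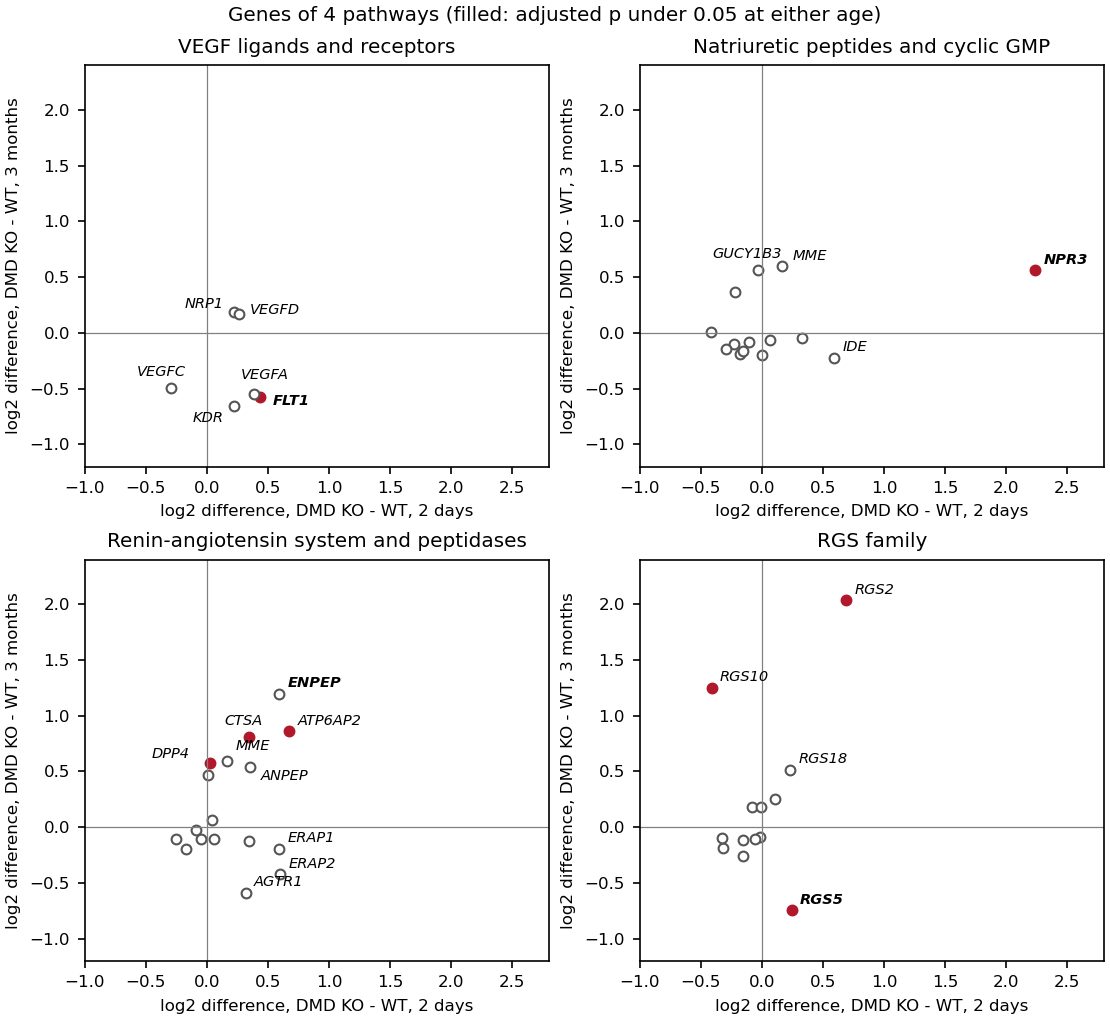
Log2 difference between DMD KO and WT at 2 days (x axis) and at 3 months (y axis) for the measured genes of 4 lists; filled points passed at either age, and the 4 genes described here are in bold. KDR and VEGFA lie beside FLT1 without passing, NPR3 lies alone on its list at 2.24 and 0.56, and RGS5 is below 0 at 3 months where RGS2 and RGS10 are above.

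At 3 months RGS5 differed between genotypes in the opposite direction from the other called members of its family. Of 13 measured RGS genes 0 were called at 2 days by limma, with 2 at an unadjusted p under 0.05. By size the first at that age were RGS2 (0.69, adjusted p = 0.119) and RGS10 (-0.41, adjusted p = 0.201). At 3 months 2 were higher and RGS5 lower, beside 4.62% higher and 1.36% lower over all probe sets. RGS2, which acts on the G proteins of vasoconstrictor receptors, was 4.09-fold higher at 3 months (2.03, adjusted p = 0.00105), at 9.42, 10.5 and 9.95 in DMD KO against 8.43, 7.89 and 7.47 in WT. For age in WT the called family members both rose, RGS5 and RGS2 (1.16, adjusted p = 0.0495), and the others were not called. RGS10, a small member of the family found in leukocytes, was higher in DMD KO at 3 months by 1.25 (adjusted p = 0.00386). RGS4, the close relative of RGS5, differed by 0.25 (adjusted p = 0.47). It lay low on the arrays, with group means from 6.33 to 6.77, and only that of DMD KO at 3 months exceeded the arrays' 25th percentiles. Of the 13 RGS genes 6 at 2 days and 5 at 3 months had group means below those percentiles, which limits what their missing calls show. Over the 13 arrays the highest correlation of RGS5 with another family member was 0.176 (RGS4), and within groups that of RGS4 was 0.552.

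Levels of cell type markers were set beside these results, since fewer cells of a type and less RNA per cell cannot be told apart in bulk muscle. Of 35 listed endothelial markers 17 were measured. At 2 days 2 were higher in DMD KO (TEK and ADGRF5), beside 7.09% of all probe sets. Without WT replicate 3 at 2 days ADGRF5 alone was called. At 3 months ADGRF5 was lower in DMD KO and the other 16 were not called. At each age 7 of the 17 had an unadjusted p under 0.05 by limma. The medians of the differences were -0.03 and -0.18. The mean level of the 17 ranged from 8.10 to 8.24 in DMD KO and 7.89 to 8.12 in WT at 2 days, and from 7.73 to 7.88 in DMD KO and 7.93 to 8.05 in WT at 3 months. The DMD KO animals at 3 months were thus the lowest for the list, as for FLT1, with no overlap with WT at that age. Of single probe sets 23% had no overlap there. The adipocyte, Schwann cell and muscle fibre lists also lay below WT without overlap at 3 months. Their highest DMD KO means were 7.69, 6.26 and 11.91, and their lowest WT means 7.77, 6.51 and 11.94. The fibroblast, macrophage and satellite cell lists lay above WT without overlap, so this separation is not particular to endothelial markers. PECAM1, a defining marker, differed by -0.03 at 2 days and -0.48 at 3 months (adjusted p = 0.92 and 0.109). ADGRF5, an adhesion receptor of capillaries, differed by 1.29 (adjusted p = 0.00271) and -1.03 (adjusted p = 0.015). It correlated with FLT1 at r = 0.875 over the 13 arrays and at 0.049 within groups, so the shared pattern is one of group means. The part of endothelial content in the FLT1 result was not tested.

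Of 18 listed pericyte markers 13 were measured, and 0 were called at 2 days by limma, with 4 at an unadjusted p under 0.05. At 3 months NDUFA4L2, a mitochondrial protein of pericytes, was lower in DMD KO (-0.54, adjusted p = 0.0415) and the others were not called. At this age 4 had an unadjusted p under 0.05 by limma. The uncalled markers went both ways. KCNJ8 ranged from 8.02 to 8.34 in DMD KO and from 8.38 to 8.54 in WT. CSPG4 ranged from 8.09 to 8.22 in DMD KO and from 8.24 to 8.29 in WT. ANPEP and EBF1 were higher in DMD KO, by 0.54 and 0.32. The mean level of the list ranged from 7.69 to 7.77 in DMD KO and from 7.67 to 7.76 in WT at 3 months, so the groups overlapped where those of RGS5 did not. PDGFRB, a defining marker, differed by -0.12 (adjusted p = 0.643), with means of 7.14 in DMD KO and 7.25 in WT, under the array medians. In WT the list did not rise with age as RGS5 did: GJC1 and EBF1 were lower at 3 months and the others were not called. The part of pericyte content in the RGS5 results was not tested. Of 9 smooth muscle markers 0 were called at either age by limma, with 3 at 2 days and 2 at 3 months at an unadjusted p under 0.05. Without WT replicate 3 at 2 days ACTG2 was lower at 3 months (-0.87, adjusted p = 0.0439). Its means at that age, 5.65 in DMD KO and 6.527 in WT, were both below the 25th percentile of every array. The median correlation of RGS5 was -0.03 with the pericyte markers, 0.11 with the smooth muscle markers and 0.30 with the endothelial markers. With the 9 markers of muscle fibres it was 0.43, the highest being ATP2A1 at 0.766, which was 0.170 within groups. For comparison, the median over all 10282 other genes was -0.01.

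**Figure D4:**
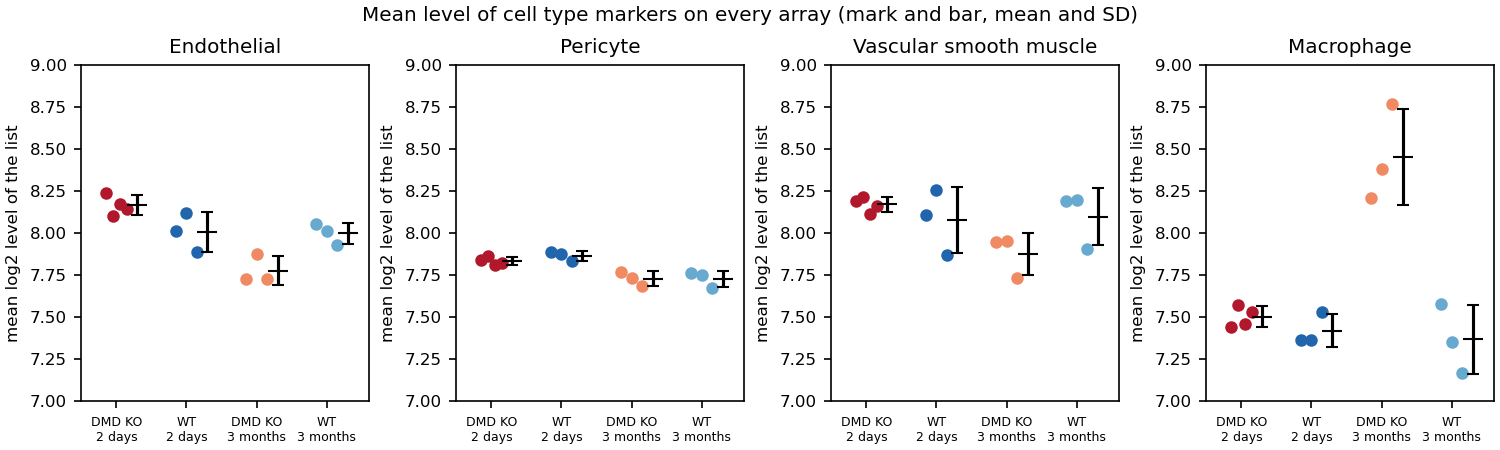
Mean log2 level of the measured markers of 4 cell types on each array, by group; points are animals, and the mark and bar give the mean and SD. Endothelial markers are lowest in DMD KO at 3 months (7.73 to 7.88), pericyte markers overlap between genotypes, and macrophage markers are high in DMD KO at 3 months (8.21 to 8.77).

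Fibroblast and macrophage markers moved with genotype as well. Of 11 fibroblast markers 8 were lower in DMD KO at 2 days and 6 higher at 3 months. Of 8 macrophage markers 0 were called at 2 days by limma, with 1 at an unadjusted p under 0.05, and 6 were higher at 3 months. The part of these cells in the results for the 4 genes was not tested. At 2 days 1 of 3 lymphatic, 1 of 8 adipocyte, 3 of 3 dividing cell and 1 of 2 satellite cell markers were lower in DMD KO, and at 3 months 1 adipocyte marker was. Over all probe sets 2.85% were lower at 2 days and 1.36% at 3 months. T and NK cell (8), Schwann cell (3) and red blood cell (4) markers had 0 called at either age by limma, with 1, 1 and 0 at an unadjusted p under 0.05 at 2 days and 1, 0 and 0 at 3 months. Muscle fibre markers had 2 higher and 1 lower at 2 days and 2 lower at 3 months.

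The genes with the most similar pattern were sought over the 13 arrays by Pearson correlation, which is given as a description since the arrays share groups. For FLT1 these were SLC25A11, the mitochondrial oxoglutarate carrier (r = 0.965, and 0.799 within groups), AASS, an enzyme of lysine breakdown (0.96 and 0.516), and LOC100525869 (0.952 and 0.748). For RGS5 they were LIN52 (0.959 and 0.849), KLHL23 (0.894 and 0.748) and HRC, a calcium-binding protein of the sarcoplasmic reticulum (0.892 and 0.537). For ENPEP they were HSDL2, a peroxisomal protein (0.983 and 0.932), WDYHV1 (0.935 and 0.703) and PTGR2, a reductase of prostaglandin metabolites (0.934 and 0.832). For NPR3 they were FHL1, a LIM protein of muscle (0.876 and 0.706), GPAT3, an acyltransferase of lipid synthesis (0.867 and 0.617), and CCDC68 (0.864 and 0.676). None of the 12 is on any of the gene lists used here. ENPEP had 591 genes with a correlation above 0.7 and RGS5 126. Each array had a score on the main axis of the spread within groups, found after group means were taken away (44.9% of that spread). The scores themselves were computed from the full values, group means included. Scores were highest on WT replicate 3 at 2 days (61.1) and WT replicate 2 at 3 months (31.6). DMD KO replicate 3 at 3 months had the lowest (-33.7). In their groups ENPEP was lowest on those WT arrays and highest on that DMD KO array. Within either DMD KO group ENPEP did not strictly follow the order of scores. The part of this axis in the correlations of ENPEP, MME included, was not tested. Among themselves the 4 genes did not share a pattern: the highest correlation was 0.506 (FLT1 and ENPEP), and within groups 0.366 (FLT1 and RGS5).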

How the data were processed

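RNA of 13 muscle samples was extracted with Trizol, labelled with biotin and hybridised to Affymetrix whole-transcript arrays, per the labels' protocols. The deposited values are log2 levels per probe set, made by the authors. The submitters' processing notes name Affymetrix Power Tools without a version. Summary method, background correction and normalization are unknown here, and the log base was inferred from the range (2.81 to 13.8). The number of arrays limits precision.

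Values were used as deposited. Of 21893 probe sets 11028 had 1 gene symbol, 418 several and 10447 none, by GEO's platform annotation, with symbols updated by gene number (5 changed). A gene with several probe sets was represented by the brightest. limma 3.58.1 in R 4.3.3 (lmFit, eBayes) was fitted to all probe sets over the 4 groups, with 9 residual degrees of freedom and two-sided tests, and was tested on simulated data. p was adjusted over all probe sets. Folds are given only where both group means exceed 6.61, the highest 25th percentile of an array. p-values set each difference against the spread between animals within groups, shared over the 4 groups and moderated by limma. The series describes the animals as biological replicates.

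Gene lists (7 pathways and 13 cell types) are described by counts and medians. In each genotype comparison the text names up to 4 called genes per direction of a pathway list by size, or, where none was called, up to 2, and for each of the 4 genes the 3 named genes that correlate best with it. Other genes named from these lists were chosen after their values were seen. The 4 genes and the lists were chosen with earlier results of these data known. Alternatives were other fits, scalings and filters, and leaving out each array. Sequences were not analysed here.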

Additional observations from a re-analysis of the deposited data

Results flagged for a closer look

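Of 51 genes looked at (the 4 genes, DMD and those the text names from the gene lists, without the 12 chosen for a similar pattern), 10 changed their genotype difference between the ages by an amount that passed limma's test of the interaction (adjusted p under 0.05). Over all probe sets 5.05% passed it. Many of the 51 were named because they were called on these same arrays, so their count is no result about vascular genes. FLT1 changed by -1.01 and RGS5 by -0.99. Of the other vascular genes EDNRB changed by -1.26 and ADGRF5 by -2.32, both from higher in DMD KO at 2 days to a negative difference at 3 months. RGS10 changed by 1.66, from -0.41 to 1.25. Of the hypoxia and FOXO lists EGLN3, a prolyl hydroxylase that marks hypoxia-inducible factors for breakdown, changed by -1.43, FBXO32 by -2.15, SESN3 by 2.00 and PDK4 by 3.17. ATP2A1, the calcium pump of fast muscle fibres, changed by -1.02.

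Within DMD KO at 2 days, the one group of 4, an animal stood apart from the other 3 for 2 of the 51 genes. For NPPA replicate 4 was low at 7.02 against 7.22 to 7.24, a gap of 0.91 of the group's range. For ACTA2, the smooth muscle actin, replicate 1 was low at 8.29 against 8.42 to 8.43, a gap of 0.861 of the range. Chance gives such a gap in about 5% of groups, and none of FLT1, RGS5, ENPEP and NPR3 showed one.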

How the results depend on the processing

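The 4 genes gave 20 differences, tried under 7 other settings and without each of 13 arrays (the interaction has no fit on fewer groups). Of 136 values from other settings 123 kept their direction and their side of the threshold, as did 236 of 260 without 1 array. With the replicate number as a block, adjusted p at 2 days was 0.0571 for FLT1 (0.45) and 0.0867 for NPR3 (2.26). With that block the RGS5 rise in WT was 0.75 (0.0691), the ENPEP falls were -2.09 in WT (0.0541) and -1.44 in DMD KO (0.117), and the RGS5 interaction was -0.99 (0.0641). Same-numbered arrays did not deviate together (r over 0.1 in 4 of 18 pairs, and 4 of 13 arrays correlated best with their own number), so the number was not used as a pairing. The block called 735, 829, 325, 1087 and 580 probe sets for the genotype comparisons at 2 days and 3 months, age in WT, age in DMD KO and the interaction, against 2175, 1310, 633, 1760 and 1105. Array weights called 5438, 3412, 2562, 3743 and 2760. With array weights ENPEP at 3 months (0.95) and the NPR3 age difference in DMD KO (-1.57) passed, and the uncalled NPR3 age difference in WT was -0.15. Fits on the groups of a comparison alone called 1275 probe sets at 2 days and 40 for age in WT. They lost the calls of FLT1 at 2 days (0.44), RGS5 at 3 months (-0.74), and RGS5 and ENPEP for age in WT (0.75 and -2.09).

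Without 1 array the differences at 2 days ran from 0.38 to 0.52 for FLT1 and 2.03 to 2.43 for NPR3. At 3 months they ran from 0.83 to 1.41 for ENPEP and -0.093 to 1.25 for NPR3. For age in WT they ran from -0.10 to 0.011 for FLT1, 0.64 to 0.88 for RGS5 and -0.68 to 0.37 for NPR3. For age in DMD KO they ran from -1.86 to -1.28 for ENPEP and -2.32 to -1.12 for NPR3. Counts of called probe sets ran from 1143 to 3210 at 2 days, 702 to 2036 at 3 months and 368 to 757 for age in WT. Each gene had 1 probe set, so averaging probe sets gave no other value. List counts without WT replicate 3 at 2 days were added after the data were seen.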

Other observations

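Genes listed as hypoxia-induced and as FOXO-induced were read beside the vascular genes. These are names of lists, and what moved their genes was not tested. Of 20 measured hypoxia genes 3 were higher in DMD KO at 2 days: MXI1, a repressor of the MYC network (1.41, adjusted p = 0.00457), the histone demethylase KDM3A (1.15, adjusted p = 0.00797) and EGLN3 (0.94, adjusted p = 0.0188). The glycolytic enzymes LDHA and PGK1 were lower, by differences of -0.82 and -0.55 (adjusted p = 0.00209 and 0.0301). At 3 months BNIP3L, a receptor for mitophagy, and the hexokinase HK2 were higher (0.75 and 0.57, adjusted p = 0.026 and 0.0427), and PGK1 was lower (-0.97, adjusted p = 0.0021). The list thus moved in both directions, with medians of 0.22 and -0.06. Over all probe sets 7.09% were called higher and 2.85% lower at 2 days, and 4.62% and 1.36% at 3 months. Without WT replicate 3 at 2 days the list had 2 higher and 3 lower at 2 days, where EGLN3 was not called and P4HA1, a collagen prolyl hydroxylase, was lower (-0.69, adjusted p = 0.0343). At 3 months it then had 3 higher and 2 lower, with EGLN1, a relative of EGLN3, lower (-0.76, adjusted p = 0.00607) and the oxidoreductase ERO1A higher (0.60, adjusted p = 0.0278) in addition. The shares above are from all 13 arrays and do not apply to the counts without that array. Over the 13 arrays EGLN3 had the highest correlation with FLT1 on this list, 0.929, and 0.737 within groups.

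Of 13 measured genes listed as FOXO-induced, 8 were higher and 1 lower in DMD KO at 2 days, and 4 were higher at 3 months. The shares over all probe sets were 7.09% higher and 2.85% lower at 2 days, and 4.62% higher at 3 months. FBXO32 (3.34), GABARAPL1 (2.60), FKBP5 (2.12) and SESN1 (1.60) had the largest differences at 2 days, and SESN3 was lower (-0.86). Without WT replicate 3 at 2 days 6 were higher and 1 lower at that age, and FKBP5 was not called. The shares above are from all 13 arrays and do not apply to that count. At 3 months PDK4 (3.66), GABARAPL1 (1.72), SESN3 (1.14) and CTSL (0.78) were higher. Over the 13 arrays ENPEP had a median correlation of 0.637 with this list, the highest being PDK4 at 0.891, which was 0.588 within groups. NPR3 had a median of 0.526, the highest being GABARAPL1 at 0.729, which was -0.06 within groups. The medians of FLT1 and RGS5 were 0.356 and -0.22.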
